A study of Bos taurus with 7 samples.

Results

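The genes described here are the chaperones and sensors of endoplasmic reticulum (ER) stress and the heat shock proteins, a list of 38 named genes taken by symbol. For each one, the estimated read counts and the TPM (a level per transcript length, scaled to the same sum in every library) of its RefSeq transcripts were added up. A transcript was found for 37 of the 38, among 23704 genes in all, and P4HB was the one without. The 37 genes were covered by 62 transcripts, and 26 of them had a single one. The list holds 14 measured ER lumenal chaperones and folding enzymes, 7 sensors and regulators of the unfolded protein response (UPR), 5 genes of ER-associated degradation, 8 cytosolic chaperones, the 2 subunits of the mitochondrial chaperonin and the heat shock factor HSF1.

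RNA-seq was carried out on pools of whole preantral follicles, oocyte and granulosa cells together, isolated mechanically from the ovaries of Holstein Friesian cows collected at slaughter. Primary follicles (PF) gave 4 libraries and secondary follicles (SF) gave 3, none of them genetically altered or given a test compound. The study describes the same handling for all stages. It had a cold transport, homogenisation of the ovarian cortex and a recovery at body temperature in a medium with follicle-stimulating hormone before lysis. The follicles came from many animals in separate collection experiments, and the sources used here do not give these per library. Since each library is a pool, p-values measure the spread between these pools, and fewer cells of a type and less RNA per cell cannot be told apart.

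The number carried in the name of each library gives a second division of the samples. PF replicates 1, 2, 3 and 4 bear the numbers 24, 34, 46 and 47, and SF replicates 1, 2 and 3 bear 26, 48 and 49. PF replicates 1 and 2 and SF replicate 1 therefore lie below 40, and the other 4 lie above. The sources used here do not say what this number stands for. PF replicate 4 was left out of the tests, as the study left it out of its own test, and its values are given apart.

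Proteins that enter the secretory pathway are folded in the ER lumen by chaperones such as HSPA5 and by calcium-binding lectins and disulphide isomerases. When unfolded proteins build up, the membrane sensors encoded by ERN1, EIF2AK3 and ATF6 start the UPR, which raises chaperone and degradation genes, slows translation and, if it lasts, raises the pro-apoptotic regulator DDIT3. The heat shock response is the parallel system of the cytosol, in which HSF1 drives HSP70, HSP90 and their cofactors. In a growing follicle the oocyte secretes the zona pellucida and the granulosa cells secrete matrix, so both carry a heavy folding load.

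Total estimated counts ran from 18788105 to 23764615 per library, and the 26 oocyte and 26 granulosa markers that could be matched all had reads in at least 1 library. PF replicate 4 stood apart in its stromal fibroblast markers, with a score, the mean log2(TPM + 1) of the list, of 7.19 against 2.68 to 3.64 in the other 6 libraries. The 37 genes took 1.09% to 2.05% of all counts in the 3 libraries numbered below 40. Their share was 3.13% to 4.18% in the 4 numbered above 40, and the 2 ranges did not overlap.

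The most abundant of the 37 were the constitutive cytosolic HSP70 HSPA8, at 880 to 7927 TPM, and its ER counterpart HSPA5 (also called BiP), at 564 to 6619 TPM. The stress-inducible HSP70 HSPA1A ranged from 324 to 3021 TPM. Its gene has a near-identical copy, so the share of reads given to each is uncertain. At the other end, the small heat shock protein HSPB1 had 0 to 25 reads per library, and the stress sensor ERN1 (IRE1) reached at most 3.85 TPM. The plot of all 37 levels shows that the libraries parted by number for HSPA5, HSPA8 and most of the UPR genes.

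**Figure D1:**
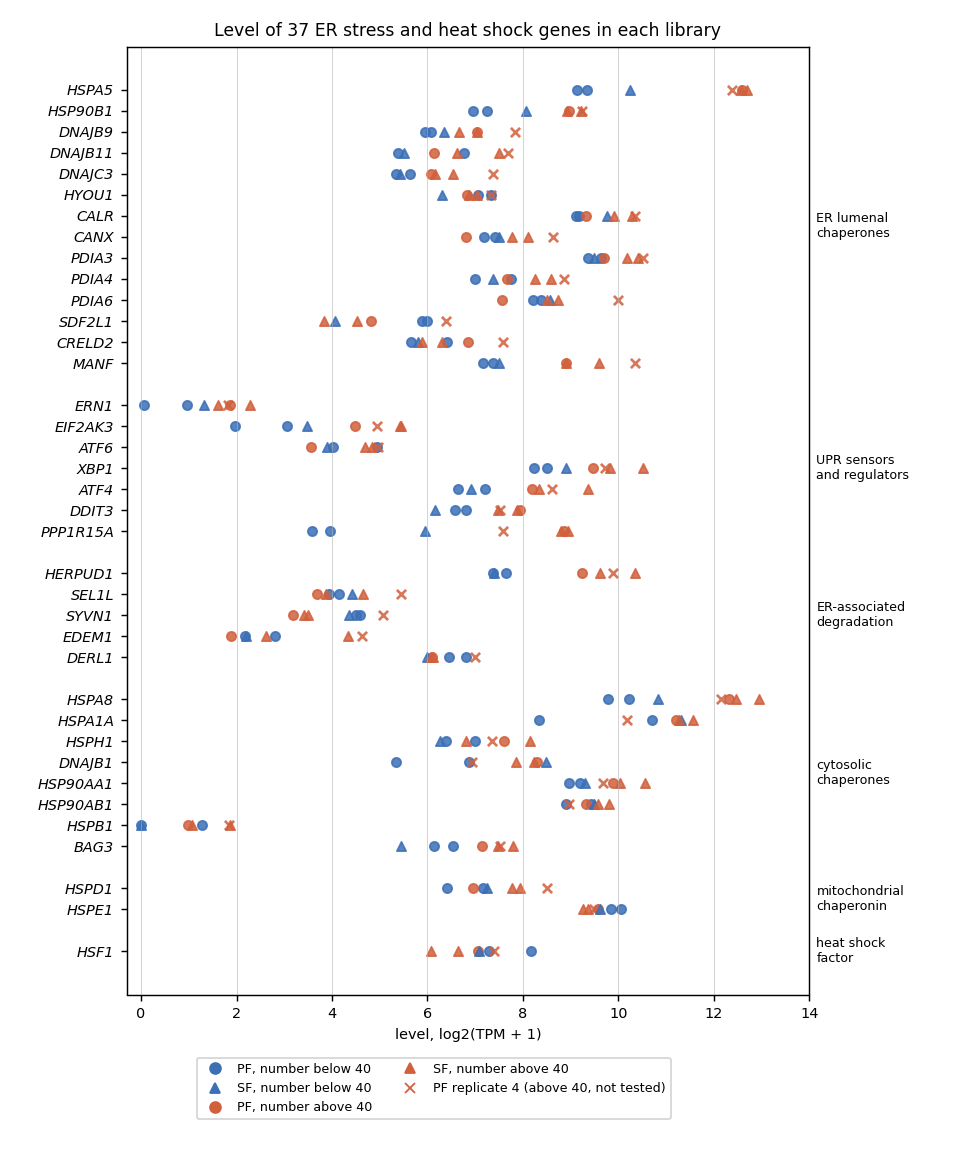
Level of each of the 37 genes, as log2(TPM + 1) on the horizontal axis, with 1 point per library. Circles are PF, triangles SF, blue marks library numbers below 40 and orange those above, and crosses are PF replicate 4. For HSPA5 the blue points lie at 564 to 1215 TPM and all orange points and the cross at 5353 TPM or more.

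Few of these genes differed between stages. With 3 PF and 3 SF libraries, the DESeq2 Wald test called 1 of 36 tested members higher in SF, the calcium-binding chaperone calreticulin (CALR), where 8.14% of all 15056 genes tested were called higher. It called 1 member lower in SF, SDF2L1, a partner of ER J proteins, where 11.0% of all genes were called lower. The median log2 fold change of the 37 genes was 0.73, against 0.02 over all genes tested. Above 0 lay 30 of the 37, and 7649 of all 15056 genes tested. This fit held no term for library number, and the stages were uneven in it. SF replicates 2 and 3 but only PF replicate 3 of the tested libraries were numbered above 40. PPP1R15A was given no adjusted p in this comparison.

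CALR stood at 579, 551 and 638 TPM in PF replicates 1, 2 and 3 and at 866, 959 and 1255 TPM in the SF replicates. Every SF library was above these 3 PF libraries, but PF replicate 4, at 1307 TPM, was above every SF library. The log2 fold change was 0.91 ± 0.34 (SE, DESeq2 adjusted p = 0.0395). The call was lost without PF replicate 1, PF replicate 2, SF replicate 2 or SF replicate 3 and with all 7 libraries, the adjusted p reaching 0.674 over the alternatives. SDF2L1 stood at 58.3, 62.2 and 27.1 TPM in the PF replicates 1 to 3 and at 15.8, 22.0 and 13.3 TPM in SF. The groups did not overlap, PF replicate 4 was highest at 82.7 TPM, and the log2 fold change was -1.40 ± 0.42 (SE, DESeq2 adjusted p = 0.00857). This call was lost without PF replicate 1 or PF replicate 2, with an adjusted p of at most 0.101 over the alternatives.

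In TPM, 6 of the 36 members (16.7%) had all 3 SF values above the 3 PF values, against 14.3% of all genes tested. These were CALR, the lectin chaperone CANX, the isomerase PDIA6, HSPA1A, the constitutive HSP90 HSP90AB1 and the mitochondrial chaperonin HSPD1. SDF2L1 was the 1 member with all SF values lower, where 18.5% of all genes had that order. CANX went from 144, 169 and 110 TPM in PF replicates 1 to 3 to 181, 218 and 274 TPM in SF (log2 fold change 0.80 ± 0.32 SE, DESeq2 adjusted p = 0.0622). HSPD1 went from 143, 83.6 and 122 TPM to 152, 218 and 245 TPM (log2 fold change 0.92 ± 0.38 SE, DESeq2 adjusted p = 0.067). Neither CANX nor HSPD1 passed the test, and PF replicate 4 had the highest value of all for both, at 396 and 360 TPM. PF replicate 4 was also the highest for PDIA6, at 1012 TPM. For HSPA1A and HSP90AB1 it was below every SF library, at 1161 and 496 TPM.

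edgeR's quasi-likelihood test called no gene between the stages, members included. At an unadjusted p below 0.05 it had 6 members, CALR, CANX, PDIA6, SDF2L1, the degradation adaptor SEL1L and HSPD1, and 26.9% of all genes. The count of members called higher in SF by DESeq2 moved from 1 to 12 when PF replicate 3, the one tested PF library numbered above 40, was left out, and HSPA5, HSPA8 and XBP1 were among the 12. Over all genes the count called higher went from 1226 to 2018 in the same fit. Without PF replicate 1, PF replicate 2 or SF replicate 2 the count of members called higher was 0, and without SF replicate 1 it was 3. Over all genes these fits called 1001, 936, 697 and 1019 higher. The count of members called lower in SF was 0 without PF replicate 1 or 2 and 2 without SF replicate 1, beside 927, 951 and 1785 of all genes.

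Cell type markers also moved with stage, beside 8.14% of all genes called higher in SF and 11.0% called lower. Of 26 oocyte markers, 19 were lower in SF by DESeq2, and their summed level was 4469 to 8639 TPM in the 3 PF libraries and 395 to 2832 TPM in SF. Of 22 granulosa markers tested, 14 were higher in SF, the summed level of the list being 2499 to 3765 TPM in PF and 8516 to 9853 TPM in SF. No marker of either list was at 0 in every library, and their part in the stage values was not tested.

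More of these genes passed the test by library number. With stage kept as a term in the fit, DESeq2 called 12 of 37 members higher in the 3 libraries above 40 (PF replicate 3, SF replicates 2 and 3) than in the 3 below (PF replicates 1 and 2, SF replicate 1). Over all 19009 genes tested, 3.05% were called higher. The 12 were HSPA5, HSP90B1 and MANF of the ER lumen, EIF2AK3, XBP1, ATF4, DDIT3 and PPP1R15A of the UPR, HERPUD1 of ER-associated degradation, and the cytosolic HSPA8, HSP90AA1 and BAG3. One member, the ubiquitin ligase SYVN1, was called lower, where 1.58% of all genes were. The median log2 fold change of the 37 was 0.95, against -0.05 over all genes tested.

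PF replicate 4, which was not in this fit, lay above every library below 40 for all 12. It did so for 32 of the 37 members and for 24.1% of all genes tested. The plot of both fold changes shows the called genes along the library number axis, with wide errors on the stage axis.

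**Figure D2:**
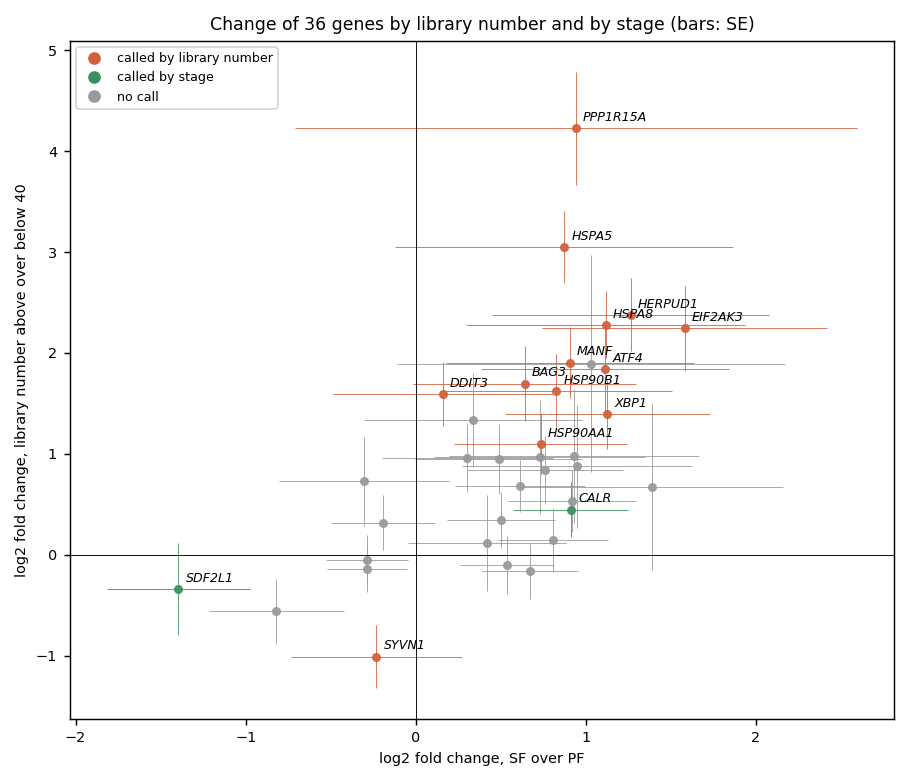
Log2 fold change of 36 genes between stages (SF over PF, horizontal axis) and by library number (above over below 40, vertical axis), with bars of 1 SE from DESeq2. HSPB1, with at most 25 reads in a library, is not drawn. PPP1R15A and HSPA5 lie highest, at 4.23 and 3.05 on the vertical axis, and CALR and SDF2L1 are the 2 called by stage.

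HSPA5 is the main HSP70 of the ER lumen and holds the UPR sensors inactive while it is free. It stood at 646 and 564 TPM in PF replicates 1 and 2 and at 1215 TPM in SF replicate 1. Above 40 it stood at 6183 TPM in PF replicate 3 and at 6112 and 6619 TPM in SF replicates 2 and 3, and PF replicate 4 had 5353 TPM. Every library above 40 was far above every one below it, in both stages. The mean was 7.80-fold higher above 40 (808 ± 355 against 6305 ± 274 TPM, SD, n = 3 each), and the fitted log2 fold change was 3.05 ± 0.36 (SE, DESeq2 adjusted p = 7.72e-15). Between stages it was 0.87 ± 0.99 (SE, DESeq2 adjusted p = 0.59).

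HSP90B1, the ER HSP90 (GRP94), stood at 150, 123 and 267 TPM below 40 and at 500, 487 and 597 TPM above it, with 600 TPM in PF replicate 4. The groups did not overlap, and the log2 fold change was 1.63 ± 0.36 (SE, DESeq2 adjusted p = 0.00029), a call that was lost without PF replicate 3. MANF, a secreted ER-resident factor raised by ER stress, stood at 142, 166 and 180 TPM below 40 and at 477, 475 and 770 TPM above it. PF replicate 4 had the highest MANF level, 1305 TPM. Its log2 fold change was 1.9 ± 0.35 (SE, DESeq2 adjusted p = 8.25e-06).

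The other 11 lumenal genes passed no test by number, with log2 fold changes from -0.34 for SDF2L1 to 0.97 for the J protein DNAJB11. DNAJB9 and DNAJC3, which are also J proteins of HSPA5, had every library above 40 higher than every one below. DNAJB9 stood at 61.0, 66.7 and 79.8 TPM below 40 and 131, 99.9 and 130 TPM above (DESeq2 adjusted p = 0.0867). DNAJC3 stood at 39.6, 48.9 and 41.7 TPM below and 66.1, 70.0 and 92.1 TPM above (DESeq2 adjusted p = 0.0976). Both passed with all 7 libraries and when SF replicate 2 was left out. HYOU1, a large HSP110-like chaperone of the ER, CANX and PDIA6 had ratios of mean TPM near 1, at 0.974, 1.22 and 0.972.

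Of the lectin and isomerase genes, CALR stood at 579, 551 and 866 TPM below 40 and 638, 959 and 1255 TPM above, with overlap (log2 fold change 0.45 ± 0.27 SE, DESeq2 adjusted p = 0.508). The glycoprotein isomerase PDIA3 did not overlap, at 798, 656 and 717 TPM below and 829, 1153 and 1367 TPM above, but did not pass (log2 fold change 0.68 ± 0.26 SE, DESeq2 adjusted p = 0.131).

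The arm of the UPR that runs through the kinase EIF2AK3 (PERK) is represented here by EIF2AK3, ATF4, DDIT3 and PPP1R15A. DESeq2 called all 4 higher above 40, where it called 3.05% of all genes tested higher, and edgeR called none of the 4. EIF2AK3 itself stood at 7.29, 2.91 and 10.1 TPM below 40 and at 21.4, 42.3 and 41.9 TPM above, with 29.8 TPM in PF replicate 4. Its log2 fold change was 2.25 ± 0.42 (SE, DESeq2 adjusted p = 1.3e-05). ATF4, the transcription factor whose translation the kinase favours, stood at 98.4, 147 and 120 TPM below 40 and at 293, 323 and 662 TPM above, with 388 TPM in PF replicate 4. No library below 40 reached the lowest above it, and the log2 fold change was 1.84 ± 0.44 (SE, DESeq2 adjusted p = 0.00138), which was lost without SF replicate 1.

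DDIT3 (CHOP), a transcription factor downstream of ATF4, stood at 111, 94.7 and 70.7 TPM below 40 and at 246, 178 and 235 TPM above, with 181 TPM in PF replicate 4. The log2 fold change was 1.59 ± 0.31 (SE, DESeq2 adjusted p = 3.18e-05), lost without PF replicate 3. PPP1R15A (GADD34), the phosphatase subunit that restores translation, moved furthest of the 37. It stood at 11.0 and 14.4 TPM in PF replicates 1 and 2, at 60.7 TPM in SF replicate 1, and at 464, 492 and 445 TPM above 40. PF replicate 4 lay between, at 191 TPM, and the log2 fold change was 4.23 ± 0.56 (SE, DESeq2 adjusted p = 1.98e-11).

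Of the other arms, XBP1, the transcription factor activated by ERN1, stood at 300, 364 and 480 TPM below 40 and at 707, 903 and 1459 TPM above, with 840 TPM in PF replicate 4. The log2 fold change was 1.39 ± 0.34 (SE, DESeq2 adjusted p = 0.00202), lost without PF replicate 3 or SF replicate 1. ERN1 did not overlap between the groups either but had 3.85 TPM at most (DESeq2 adjusted p = 0.453). The sensor ATF6 stood at 29.6, 15.3 and 13.8 TPM below 40 and 10.8, 24.9 and 27.5 TPM above, with full overlap (log2 fold change 0.12 ± 0.48 SE, DESeq2 adjusted p = 0.964).

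In ER-associated degradation the members went different ways. HERPUD1, a membrane protein of the degradation complex that ER stress induces, stood at 199, 166 and 167 TPM below 40 and at 605, 785 and 1296 TPM above, with 950 TPM in PF replicate 4. The groups did not overlap, and the log2 fold change was 2.38 ± 0.36 (SE, DESeq2 adjusted p = 1.18e-08). SYVN1 (HRD1), the ubiquitin ligase of that complex, stood at 22.9, 21.7 and 19.5 TPM below 40 and at 8.14, 9.64 and 10.3 TPM above. PF replicate 4, however, had the highest SYVN1 level of all, 32.6 TPM. The log2 fold change was -1.01 ± 0.31 (SE, DESeq2 adjusted p = 0.0274), a call lost when any one library was left out and with all 7. SEL1L, the mannosidase-like EDEM1 and the channel protein DERL1 passed no test, with log2 fold changes of -0.10, 0.67 and -0.05.

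Of the 8 cytosolic members, 3 were called higher above 40, where 3.05% of all genes tested were. HSPA8 stood at 1195 and 880 TPM in PF replicates 1 and 2 and at 1829 TPM in SF replicate 1. Above 40 it stood at 5088, 5648 and 7927 TPM, with 4569 TPM in PF replicate 4. The mean was 4.78-fold higher above 40 and no libraries overlapped (log2 fold change 2.28 ± 0.33 SE, DESeq2 adjusted p = 2.24e-09).

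HSP90AA1, the inducible HSP90, stood at 589, 502 and 627 TPM below 40 and at 943, 1055 and 1509 TPM above, with 824 TPM in PF replicate 4. Its log2 fold change was 1.10 ± 0.29 (SE, DESeq2 adjusted p = 0.00667), lost without PF replicate 2, PF replicate 3 or SF replicate 1. BAG3, a cochaperone that links HSP70 to autophagy, stood at 91.5, 69.4 and 42.6 TPM below 40 and at 140, 178 and 222 TPM above, with 181 TPM in PF replicate 4. Its log2 fold change was 1.70 ± 0.37 (SE, DESeq2 adjusted p = 0.000254), lost without SF replicate 1.

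HSPA1A and DNAJB1, the HSP70 and J protein most typical of a heat shock, overlapped between the library numbers. HSPA1A stood at 1672, 324 and 2530 TPM below 40 and at 2353, 2470 and 3021 TPM above, and PF replicate 4 had 1161 TPM (log2 fold change 0.88 ± 0.61 SE, DESeq2 adjusted p = 0.603). DNAJB1 stood at 117, 39.4 and 358 TPM below 40 and at 314, 230 and 298 TPM above (log2 fold change 0.98 ± 0.67 SE, DESeq2 adjusted p = 0.59). PF replicate 4 had 121 TPM of DNAJB1, close to PF replicate 1, and its HSPA1A level was below that of PF replicate 1. For both genes SF replicate 1 lay within or above the range of the other SF libraries. HSP90AB1 also overlapped, at 691, 476 and 721 TPM below and 640, 759 and 891 TPM above (log2 fold change 0.34 ± 0.27 SE, DESeq2 adjusted p = 0.692). The HSP110 gene HSPH1 stood at 127, 82.2 and 75.7 TPM below 40 and 193, 111 and 281 TPM above and did not pass (DESeq2 adjusted p = 0.0787).

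The mitochondrial chaperonin genes and HSF1 passed no test. HSPD1 stood at 143, 83.6 and 152 TPM below 40 and 122, 218 and 245 TPM above (log2 fold change 0.54 ± 0.31 SE, DESeq2 adjusted p = 0.464). Its partner HSPE1 stood at 1061, 925 and 779 TPM below and 763, 656 and 607 TPM above, with a fitted log2 fold change of -0.14 ± 0.23 (SE, DESeq2 adjusted p = 0.925). HSF1 stood at 287, 156 and 135 TPM below and 133, 98.4 and 66.9 TPM above (log2 fold change -0.56 ± 0.32 SE, DESeq2 adjusted p = 0.46). Above minus below 40, the HSF1 difference on the log2(TPM + 1) scale was -0.67 among tested PF and -0.73 among SF libraries. These rest on PF replicate 3 alone above 40 and SF replicate 1 alone below. PF replicate 4, not included, had 167 TPM, above PF replicate 2 and SF replicate 1.

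Counted by overlap alone, 16 of the 37 members had every TPM above 40 higher than every TPM below, where 6.77% of all genes tested did. The 16 were the 12 called genes with DNAJB9, DNAJC3, PDIA3 and ERN1. With every value lower above 40 there were 3 members, SYVN1, HSPE1 and HSF1, where 8.30% of all genes were. edgeR's quasi-likelihood test called 4 genes in all by library number and 0 members, the smallest adjusted p of a member being 0.0667, for HSPA5. At an unadjusted p below 0.05 edgeR had 18 of the 37 members and 9.73% of all genes. limma on log2(TPM + 1) called 9 members higher, the DESeq2 list without EIF2AK3, HSP90AA1 and BAG3, where it called 1.86% of all genes higher.

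Scores by group, the mean log2(TPM + 1) of the genes, place these differences side by side. The score of the 7 UPR genes was 4.74 to 5.23 in the 3 libraries below 40 and 6.34 to 7.01 in the 4 above. That of the 14 ER lumenal genes was 7.22 to 7.34 below 40 and 7.80 to 8.89 above, PF replicate 4 being highest. The 8 cytosolic genes had scores of 6.89 to 7.64 below 40 and 8.08 to 8.76 above. For these 3 groups the libraries did not overlap by number, whereas for ER-associated degradation (4.87 to 5.07 below 40 and 4.82 to 6.41 above) and the chaperonin (8.13 to 8.61 and 8.26 to 8.99) they did. The scores include the called genes, so they are not separate from the calls above. The ER lumenal score holds HSPA5, HSP90B1 and MANF and was not computed without them.

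**Figure D3:**
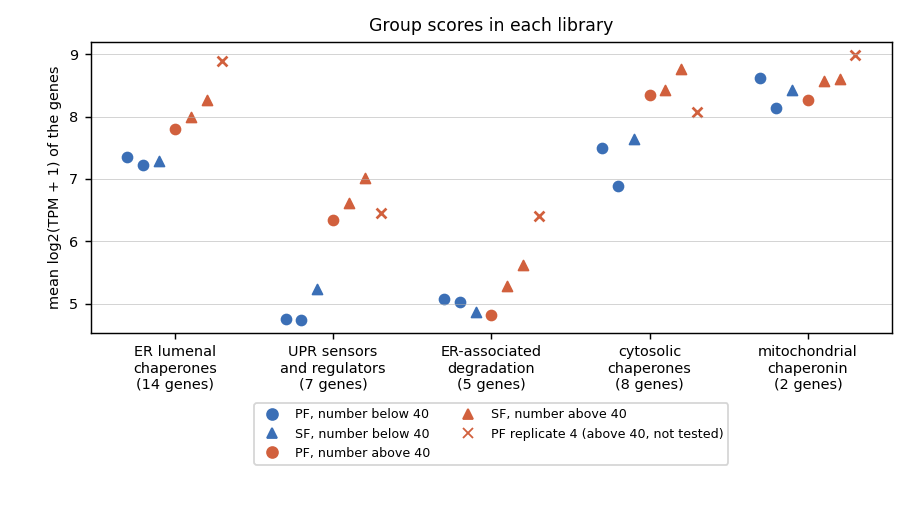
Mean log2(TPM + 1) of the genes of each group (vertical axis) in each library, with symbols for stage and colours for library number as above and a cross for PF replicate 4. The UPR score is 4.74 to 5.23 in the 3 libraries below 40 and 6.34 to 7.01 in the 4 above.

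The balance of ER against cytosolic chaperones, taken as the ER lumenal score minus the cytosolic one, was -0.15, 0.33 and -0.54 in PF replicates 1 to 3 and -0.36, -0.43 and -0.50 in SF. The SF values lay within the range of PF, and the difference of the means, -0.31, was smaller than the spread among PF (SD 0.43). The difference above minus below 40 was -0.43, from -0.06 ± 0.35 to -0.49 ± 0.06 (SD, n = 3 each). This value depended on PF replicate 2, without which it was -0.23, on PF replicate 4, which stood at 0.82 and brought it to -0.10, and on the scale, since on the log2 of summed TPM it was 0.11. Its sign thus changed with the scale used.

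XBP1 is also the target of a splicing step outside the nucleus, in which active ERN1 removes a short intron and so changes the reading frame. The files held 2 XBP1 transcripts, of 1787 and 1761 bases, which differ by 26 bases, the length of that intron. Their sequences were not used here, so the shorter is taken by length alone. The split of reads between the 2 is Salmon's estimate, and its error was not given for these libraries.

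The short transcript had 69.6%, 77.2% and 66.2% of XBP1 reads in PF replicates 1 and 2 and SF replicate 1. It had 22.3%, 39.9% and 14.4% in PF replicate 3 and SF replicates 2 and 3, and 16.5% in PF replicate 4. Every library above 40 was lower than every one below, from 71.0% ± 5.64 to 25.5% ± 13.1 (SD, n = 3 each, exact two-sided permutation test over libraries, p = 0.1, the smallest this design allows). With PF replicate 4 the difference was -47.7 percentage points (n = 3 and 4, exact two-sided permutation p = 0.0571). The groups did not overlap here either, so this test can give no lower p with these group sizes. In level, the short transcript was 270 ± 55.6 TPM below 40 and 246 ± 106 TPM above, whereas the long one went from 111 ± 43.1 to 777 ± 406 TPM. Stage gave short shares of 56.4% ± 29.8 for PF replicates 1 to 3 and 40.2% ± 25.9 for SF (SD, n = 3, exact two-sided permutation p = 0.5).

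**Figure D4:**
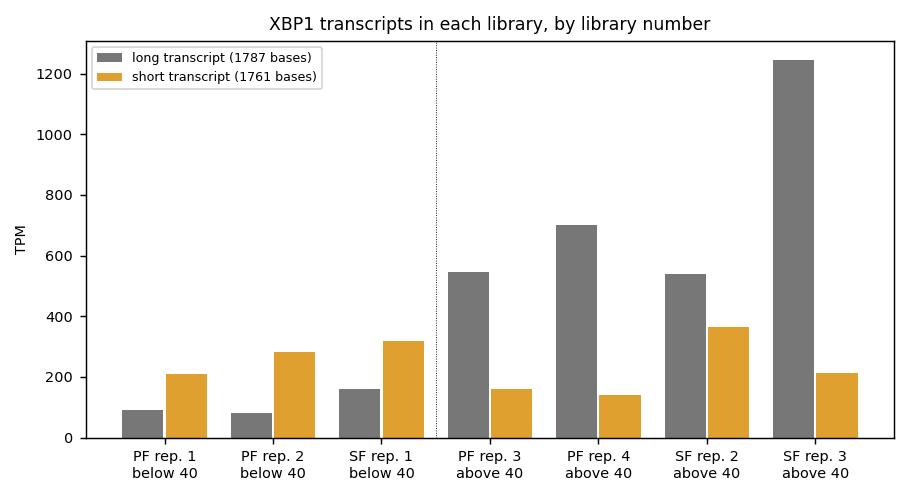
TPM of the long (grey) and short (orange) XBP1 transcript in each library, ordered by library number below (left of the dotted line) and above 40. The short transcript is the higher bar in all 3 libraries below 40 and the lower bar in all 4 above.

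Immediate early genes also moved with library number in the same libraries. Of 22 immediate early genes, which are transcribed quickly after a cell is stimulated, 18 were higher above 40 and 0 lower. Over all genes tested, 3.05% were called higher and 1.58% lower. Their summed level was 2934 to 13702 TPM in the 3 tested libraries below 40 and 24601 to 46574 TPM in the 3 above, with 18773 TPM in PF replicate 4. The 3 smallest adjusted p-values belonged to IER5 (log2 fold change 3.49 ± 0.38 SE, DESeq2 adjusted p = 8.9e-17), the AP-1 subunit FOSL1 and the mRNA decay factor ZFP36 (log2 fold change 3.69 ± 0.62 SE, DESeq2 adjusted p = 4.13e-07). FOSL1 stood at 0.57, 0 and 0.835 TPM below 40 and at 194, 240 and 729 TPM above. Of the cell type markers, 0 of 26 oocyte and 2 of 26 granulosa genes were called higher above 40 and none lower, with a median log2 fold change of -0.81 for the oocyte list. Summed oocyte markers were 2832 to 8639 TPM below 40 and 395 to 4469 TPM above, lower above 40 within each stage, and summed granulosa markers 2499 to 8516 and 2846 to 9853 TPM. No immediate early gene was at 0 in every library, and the part of these lists in the chaperone values was not tested.

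By stage, 3 immediate early genes were higher in SF, NR4A1 (log2 fold change 1.18), JUND (1.86) and BTG2 (1.02), and none was lower. Over all genes tested, 8.14% were called higher in SF and 11.0% lower. Of the 30 other UPR genes, 1 of which (ATF3) is also on the immediate early list, 5 were higher above 40 and 0 lower. The shares of all genes called by number were 3.05% higher and 1.58% lower. ATF3, a transcription factor of the PERK arm, stood at 2.68, 0.429 and 29.3 TPM below 40 and at 307, 326 and 703 TPM above, with 221 TPM in PF replicate 4 (log2 fold change 6.04 ± 1.26 SE, DESeq2 adjusted p = 0.000106). PPP1R15B, the constitutive relative of PPP1R15A, rose by 2.14 ± 0.34 on the log2 scale (SE, DESeq2 adjusted p = 7.03e-08). CREBRF rose by 1.23 ± 0.35 (SE, DESeq2 adjusted p = 0.0134), but PF replicate 4, at 16.0 TPM, was below every library below 40. By stage 6 of 27 tested were higher in SF and 0 lower, led by NFE2L1 (log2 fold change 1.04), CREB3L2 (1.23) and NFE2L2 (1.3).

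Of 34 other ER folding genes, 1 was higher above 40, the oxidase ERO1B (log2 fold change 1.65 ± 0.50 SE, DESeq2 adjusted p = 0.0228). Over all genes tested, 3.05% were called higher above 40. The shares called by stage over all genes were 8.14% higher in SF and 11.0% lower. By stage 6 were higher in SF and 2 lower, and HSPA13 (log2 fold change 1.10), the oxidase ERO1A (2.33) and TMX4 (0.80) had the 3 smallest adjusted p. Of 31 other ER-associated degradation genes none was called by number, while by stage 4 were higher and 4 lower, led by ERLIN2 (0.97), the lectin OS9 (0.81) and RNF185 (1.16).

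Among 31 other HSP70 and J protein genes, 3 were higher above 40 and 0 lower, where 3.05% and 1.58% of all genes were. DNAJA1, a J protein of cytosolic HSP70, stood at 377, 299 and 236 TPM below 40 and at 868, 819 and 1363 TPM above (log2 fold change 1.98 ± 0.36 SE, DESeq2 adjusted p = 5.67e-06). DNAJB4 rose by 1.67 and HSPA2 by 3.01 on the log2 scale. By stage 5 of these genes were lower in SF and 1 higher, where 11.0% and 8.14% of all genes were. BAG2 (log2 fold change -1.79), DNAJC2 (-1.61) and DNAJC9 (-2.18) were in front.

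The 4 remaining lists are given beside the stage background above, in which 11.0% of all genes were called lower and 8.14% higher. HSP90 cochaperones had 4 of 25 tested genes lower in SF and 0 higher, led by RUVBL1 (log2 fold change -0.87), PPID (-1.61) and RUVBL2 (-1.12). The chaperonin TRiC and prefoldin had 4 of 16 lower and 1 higher, with PFDN1 (-1.21), PFDN4 (-1.08) and CCT8 (-1.08) first. The list of small heat shock proteins and other HSFs had 3 of 10 lower and 0 higher, HSF2BP (-2.11), HSPB9 (-3.24) and HSF2 (-0.98). HSF2BP, a protein that binds HSF2, is itself neither a small heat shock protein nor an HSF. Other mitochondrial proteostasis genes had 2 of 19 lower, GRPEL1 (-1.54) and DNAJC15 (-1.39), and 1 higher, LONP1 (1.00). The oocyte markers fell between the same libraries, as given above, and their part in these values was not tested.

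By library number these last 4 lists held 2 called genes, both higher above 40, where 3.05% of all genes were called higher. FKBP5, an HSP90 cochaperone induced by glucocorticoids, rose by 1.38 ± 0.44 on the log2 scale (SE, DESeq2 adjusted p = 0.0388). CRYAB, the small heat shock protein alpha-B crystallin, stood at 23.3, 28.6 and 8.38 TPM below 40 and at 187, 29.9 and 58.8 TPM above, with 383 TPM in PF replicate 4 (log2 fold change 2.84 ± 0.55 SE, DESeq2 adjusted p = 2.33e-05). The PF libraries above 40 had the highest CRYAB levels.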

How the data were processed

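RNA-seq libraries of 4 PF and 3 SF pools were analysed. The authors trimmed the reads with Trim Galore and fastp and quantified transcripts of the RefSeq annotation of ARS-UCD1.3 with Salmon, and deposited 1 table per library with estimated counts (expected counts, not whole) and TPM per transcript. Of 76123 transcripts, 50205 (66.0%) were matched by accession to 23704 genes of RefSeq's ARS-UCD2.0 gene table, and the unmatched held 9.72% to 10.7% of counts. Because the builds differ, no coordinates are given. Counts were summed per gene and rounded.

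The members and lists were chosen with earlier results of these data known. Genes were named by rule: all 38 members are accounted for, with values per library for called ones and main chaperones, and in each other list the called genes with the 3 smallest adjusted p-values. Values given for other members, and the XBP1 transcripts and the ER against cytosolic balance by library number, were added after the data were seen. A planned search of promoters for motifs was not run. The main test was the DESeq2 1.42.0 Wald test with Benjamini-Hochberg adjustment over all genes tested and a threshold of 0.05, on 3 PF and 3 SF libraries, with stage alone or stage and library number (below or above 40). Alternatives used edgeR 4.0.16, limma 3.58.1 (R 4.3.3), TMM factors, transcript lengths, a filter of 10 counts in 3 libraries, pseudocounts of 1 and 0.1, all 7 libraries and each library left out. The fits were also run on counts simulated from DESeq2's own model with known changes. The simulated stage comparison held no library number effect, so it cannot show how the stage fit behaves in these libraries. Percentages of reads per transcript have no counting interval, since estimated counts are not independent molecules.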

Additional observations from a re-analysis of the deposited data

Results flagged for a closer look

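In PF replicate 4, 3 values lay far from the other 3 PF libraries. CALR was at 1307 TPM there, against 551 to 638 TPM in the others. SEL1L was at 42.76 TPM against 11.8 to 16.8 TPM, and EDEM1 at 23.71 TPM. Chance alone sets apart about 1 group in 20, and 37 members were examined. The stromal marker score of that library was also the highest of the 7, and its part in these values was not tested.

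For 6 members the SF minus PF difference on the log2(TPM + 1) scale had opposite signs in the tested libraries below 40 and in those above. Every tested library was on its side, PF replicate 4 was left out, and this contrast was not tested. The share of all genes with such an order was not counted, so the 6 cannot be set against a background. DNAJB9 had 0.32 below and -0.20 above. HYOU1 had -0.89 and 0.14. ATF6 had -0.59 and 1.20. SYVN1 had -0.18 and 0.27. DNAJB1 had 2.38 and -0.26, the widest gap of the 6. BAG3 had -0.89 and 0.50. Below 40 each of these values rests on 1 SF library and above 40 on 1 PF library. PF replicate 4, also numbered above 40, kept the order there for DNAJB9 only. It broke that order for HYOU1, ATF6, SYVN1, DNAJB1 and BAG3.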

How the results depend on the processing

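No called value of a member turned its direction under any alternative run, and 41 of 1036 values of members, in 19 of them, changed sign without a call on either side. By library number, the 12 members called higher became 0 with edgeR and 8 to 16 when 1 library was left out; the 1 called lower became 0 with edgeR, limma, all 7 libraries and any library left out. By stage, the 1 member higher in SF became 0 with edgeR, with limma at either pseudocount, with all 7 libraries and at an adjusted p below 0.01, 2 with library number as a covariate, 3 with TMM factors, and 0 to 12 when 1 library was left out. The 1 member lower became 0 with edgeR and with limma, and 0 to 2 when 1 library was left out. Over all genes, the 580 higher above 40 became 4 with edgeR and 326 to 611 when 1 library was left out. The 1226 higher in SF became 0 with edgeR, 1422 with the covariate, 1342 with TMM factors and 697 to 2018 when 1 library was left out. The 1650 lower in SF became 0 with edgeR and 927 to 1929 when 1 library was left out.

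Blocking on the replicate number (replicate block) gave 14 members higher and 2 lower in SF, and 1948 and 2129 of all genes against 1226 and 1650 without the block. PF replicate 2 lies below library number 40 and SF replicate 2 above it, so this block did not hold library number fixed. PF and SF libraries with the same replicate number deviated together with r of 0.26, -0.04 and 0.40 for numbers 1, 2 and 3. Not every pair was thus above 0.1, and the numbers were not taken to pair the samples. The ER minus cytosolic score between stages was 0.077 among libraries above 40. By library number it was -0.10 with all 7 libraries, 0.11 on the log2 of summed TPM and -0.10 among SF libraries alone. With 3 libraries a group, an exact test of 1 value cannot go below p = 0.1, and HSPB1 and ERN1 were too low for a change to be read.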
